A study of Mus musculus with 2 samples.

Results

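The 10 transcription factors described here, Pparg, Cebpa, Cebpb, Cebpd, Ebf1, Ebf2, Zfp423, Klf15, Prdm16 and Tcf7l2, govern how a fat progenitor becomes an adipocyte. They were taken by gene symbol, each matches 1 of the 56980 genes in the deposited tables, and their levels were followed from fibro-adipogenic progenitors (FAPs, the stromal progenitors of fat) to adipocytes. The data are single-nucleus RNA sequencing of visceral adipose tissue (VAT), the gonadal fat, from 2 female C57BL/6J mice aged 2 months, with 1 library per mouse; no treatment or altered allele is named for them. The labels give adipocytes as the cell type and 10x Genomics as the platform, while the study's methods describe nuclei of whole tissue captured with a Singleron kit. Both libraries belong to 1 group, so every comparison here is between cell types of the same mice, and n is 2 throughout.

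Adipogenesis runs as a cascade. CEBPB and CEBPD are the early factors, switched on by hormonal cues, and they drive expression of PPARG and CEBPA, which sustain each other and turn on the lipid storage genes. EBF1, EBF2 and ZFP423 act in committed progenitors, KLF15 acts late in the programme, PRDM16 is a coregulator of the thermogenic (heat-producing) programme, and TCF7L2 is a nuclear effector of WNT signalling, a pathway that restrains adipogenesis.

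Filters asked for more than 500 genes and more than 1000 UMIs (unique molecular identifiers, each counting 1 captured RNA molecule) per nucleus, with mitochondrial UMIs below 15%. With these, 15058 of 24492 called nuclei remained, 2833 in replicate 1 and 12225 in replicate 2, with 8466237 and 48068273 UMIs. The libraries stood apart: the median mitochondrial share was 6.20% in replicate 1 and 0.621% in replicate 2, and 27 of the retained barcodes occurred in both. Clustering without the 10 factors gave 5573 adipocyte, 1550 FAP, 2416 mesothelial, 592 endothelial and 161 smooth muscle and pericyte nuclei, 252 and 1090 immune nuclei in replicates 1 and 2, all named from their markers, and 3424 nuclei that stayed unnamed. All 8 FAP markers led the FAP cluster, and 5 of 6 adipocyte markers led the adipocyte cluster. The mesothelial cluster also had 5 of the 8 FAP markers raised. Replicate 1 supplied 250 FAP nuclei with 545536 UMIs and replicate 2 supplied 1300 with 3431835, against 1657 and 3916 adipocyte nuclei with 5885920 and 26915739 UMIs. Levels are in CPM, counts per 1e+06 UMIs, taken over the summed nuclei of each type and library. They are compared within a gene only, since Cebpb, Cebpa and Cebpd span 1.504 to 3.75 kb and the others 13.2 to 391 kb.

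FAP and adipocyte nuclei differed in 9 of the 10 factors. Ebf2 and Cebpd were higher in FAPs, Pparg, Cebpa, Zfp423, Klf15, Prdm16, Tcf7l2 and Cebpb were higher in adipocytes, and Ebf1 did not pass the test. The calls of Cebpb, Prdm16 and Tcf7l2 depend on the settings given with each. The test was edgeR's quasi-likelihood test on the sums, with TMM scaling, the library as a block and Benjamini-Hochberg adjustment over 13868 genes at a threshold of 0.05. Many genes differ between these cell types: 27.6% of all genes tested were higher in FAPs and 21.1% were higher in adipocytes, against 2 and 7 of the 10 factors. The clusters were drawn on other genes of the same nuclei, so the p-values describe the difference between these clusters in 2 mice.

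**Figure D1:**
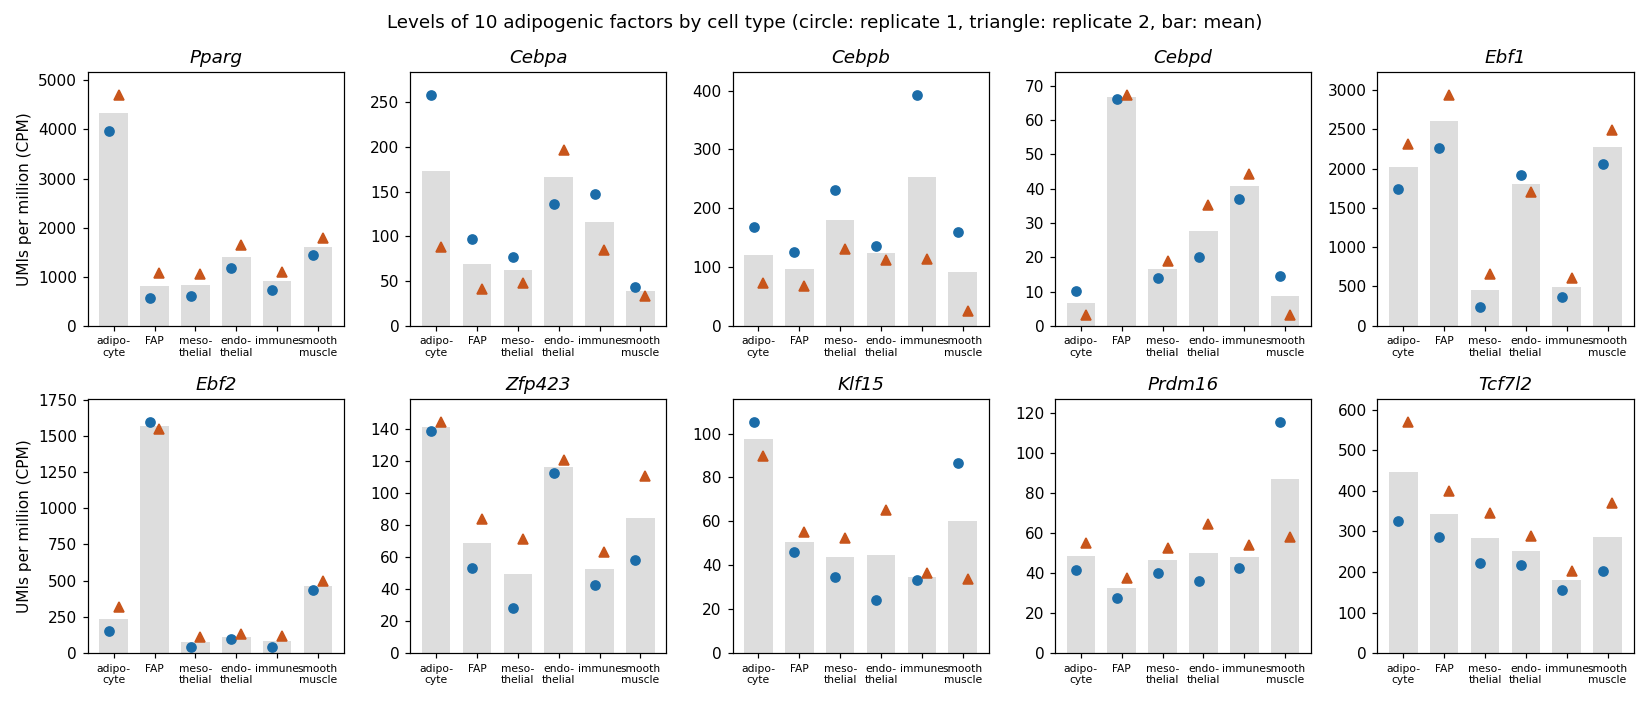
CPM of each factor (vertical axis, own scale for each gene) in 6 cell types, with a circle for replicate 1, a triangle for replicate 2 and a bar for their mean. Pparg stands highest in adipocytes and Ebf2 in FAPs in both mice, while the Cebpb point of replicate 1 lies above that of replicate 2 in all 6 types.

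Scaling shifts all these differences together. Adipocyte sums had TMM factors of 0.782 and 0.766 and FAP sums 0.936 and 1.06, so the median over all genes was 0.02 on the log2 scale with TMM and 0.41 with library totals alone. The part of all called genes that was higher in FAPs was 56.7% with TMM, 76.5% with library totals and 70.5% with DESeq2. With library totals the calls of Cebpb (adjusted p = 0.52), Prdm16 (adjusted p = 0.13) and Tcf7l2 (adjusted p = 0.22) were lost in edgeR, which left 4 factors higher in adipocytes, while the calls of Pparg, Cebpa, Zfp423, Klf15, Ebf2 and Cebpd held under both.

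Pparg (ENSMUSG00000000440, GRCm39 chr6:115337675-115468268, plus strand), the nuclear receptor without which no adipocyte forms, was at 3966 and 4702 CPM in adipocytes of replicates 1 and 2 and at 559 and 1079.6 CPM in FAPs. Every adipocyte value lay above every FAP value. The log2 difference, FAP minus adipocyte, was -2.81 ± 0.24 (SE; edgeR adjusted p = 6.3e-16). After each nucleus was thinned to 1000 UMIs, to set aside the greater depth of adipocytes, Pparg was seen in 92.2% and 95.5% of adipocyte nuclei and in 20% and 36.3% of FAP nuclei (exact 95% binomial intervals 15.2 to 25.5% and 33.7 to 39.0%, counting error only). Immune nuclei, with median depths of 1625 and 1870 UMIs against 1754 and 2095 in FAPs, showed Pparg in 24.6% and 35.6%, inside the counting interval of the FAP share in both mice. Without thinning the shares were 31.2% and 52.6% in FAPs and 97.0% and 99.7% in adipocytes.

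The Pparg gene has several start sites, and the deposited UMIs do not separate their transcripts. RefSeq promoters (GRCm38.p6 table, 250 bases before to 50 after a start) matched 8 of the 10 factors, all but Cebpd and Ebf2, with 13 starts, each found once in GRCm39. Letters of the C/EBP motif, TTNNGCAA on either strand, occur in 10.8% of 32851 promoters of this length. They are in the most downstream of the 3 Pparg starts and in the outer Zfp423 start, and in no other of the 13. The EBF motif (in 0.904% of promoters) and the direct repeat bound by PPARG with RXR (in 0.0396%) had no match in the 13 starts, and TCF letters (CTTTGA or TCAAAG, in 16.003% of promoters) were in 1 Ebf1 start. Letters of the CACCC box (CCACCC or GGGTGG, 31.5%), CCAAT box (CCAAT or ATTGG, 37.4%) and TATA box (TATAAA or TTTATA, 13.6%) were searched too; CACCC letters are in the upstream Pparg start, both Zfp423 and both Tcf7l2 starts and those of Cebpa and Cebpb. CCAAT letters are in the middle and downstream Pparg starts and those of Klf15 and Prdm16, and TATA letters in the middle Pparg start, the downstream Tcf7l2 start and those of Cebpa and Cebpb. No marked match overlaps another motif searched. The upstream Pparg start is shown for contrast, and capitals mark C/EBP letters only.
Pparg upstream start, chr6:115337855-115338154, plus strand: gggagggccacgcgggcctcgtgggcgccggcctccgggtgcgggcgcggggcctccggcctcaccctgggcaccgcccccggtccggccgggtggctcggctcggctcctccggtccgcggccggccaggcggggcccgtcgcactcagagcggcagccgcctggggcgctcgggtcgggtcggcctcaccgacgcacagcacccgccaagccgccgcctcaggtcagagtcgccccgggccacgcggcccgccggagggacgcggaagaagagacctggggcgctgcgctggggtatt
Pparg downstream start, chr6:115398777-115399076, plus strand: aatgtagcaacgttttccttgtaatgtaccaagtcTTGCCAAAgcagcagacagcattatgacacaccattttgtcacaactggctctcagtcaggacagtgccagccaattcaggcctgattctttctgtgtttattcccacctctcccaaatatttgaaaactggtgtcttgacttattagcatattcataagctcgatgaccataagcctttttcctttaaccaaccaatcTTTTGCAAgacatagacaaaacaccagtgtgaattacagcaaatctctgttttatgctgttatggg
Zfp423 outer start, chr8:88686174-88686473, minus strand: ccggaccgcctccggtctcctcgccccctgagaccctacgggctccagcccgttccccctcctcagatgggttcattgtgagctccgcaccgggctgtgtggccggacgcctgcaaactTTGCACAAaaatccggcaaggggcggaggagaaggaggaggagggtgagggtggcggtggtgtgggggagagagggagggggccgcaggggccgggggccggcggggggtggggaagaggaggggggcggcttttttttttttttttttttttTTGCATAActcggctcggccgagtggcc
A match is a description of letters and not a bound site. The GC content was 80.3% at the upstream Pparg start and 40.3% at the downstream start.

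Pparg UMIs in FAP nuclei were set beside those of the adipocyte markers Adipoq, Plin1, Plin4, Adipor2, Acvr1c and Adrb3, all 6 of which had UMIs in FAPs of both libraries. Their summed level was 1323 and 1225.0 CPM in FAPs and 5726 and 4936 CPM in adipocytes. The 6 markers reached 15.7 to 37.4% of their adipocyte level in FAPs, with a median of 24.4%, and Pparg reached 14.1% and 23.0%. Over all FAPs, Pparg lay among or just below the adipocyte markers, and the part of adipocyte RNA in the Pparg level of FAPs was not tested. In immune nuclei, which should lack these markers too, they reached 21.6 to 46.4% and Pparg 18.3% and 23.1%.

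Leaving out 146 FAP nuclei of a subcluster with all 6 adipocyte markers raised and a mean doublet score of 0.283 moved Pparg from -2.81 to -4.29 on the log2 scale (edgeR adjusted p = 7.1e-24; this setting was chosen after seeing the data). In that subcluster Pparg stood at 3028 and 3436 CPM, close to adipocytes. It was -3.80 (adjusted p = 3.9e-17) with the highest doublet scores removed. Without the subcluster 7 factors were again higher in adipocytes and 2 in FAPs.

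**Figure D2:**
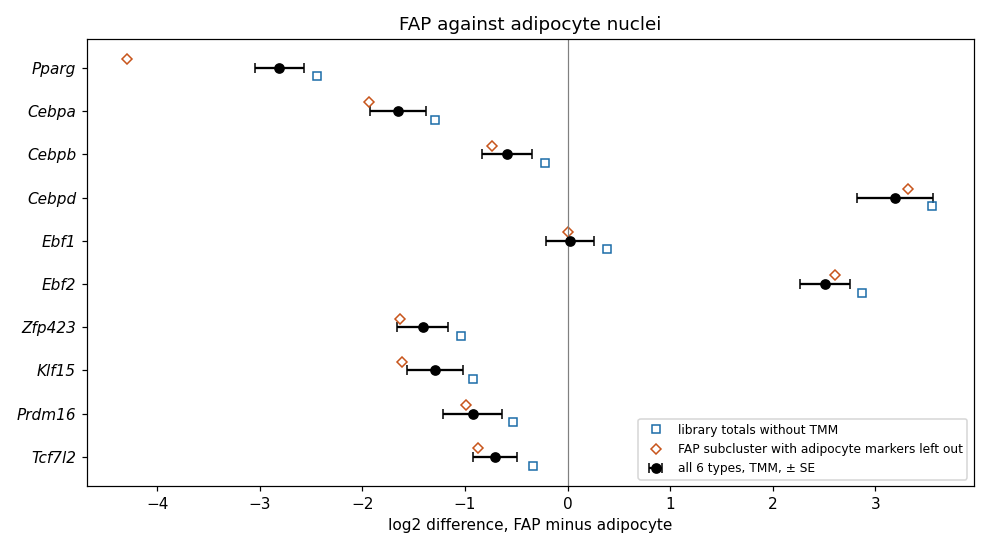
Log2 difference of each factor, FAP minus adipocyte (horizontal axis), with the SE of the edgeR fit as bars, the value with library totals as squares and the value without the FAP subcluster with adipocyte markers as diamonds. Pparg moves to -4.29 without that subcluster, and the squares lie to the right of the circles for every factor.

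Cebpa (ENSMUSG00000034957, chr7:34818718-34821353), the partner of PPARG in late differentiation, was at 258 and 88.1 CPM in adipocytes and at 97.2 and 41.7 CPM in FAPs. Replicate 1 was above replicate 2 in both types, and the FAP value of replicate 1 exceeded the adipocyte value of replicate 2, so the groups overlap between mice but not within a mouse. On the log2 scale the difference was -1.65 ± 0.27 (edgeR adjusted p = 6.9e-07). Endothelial nuclei held 136 and 197 CPM and did not differ from adipocytes past the threshold (adjusted p = 0.93 over all genes and pairs of types, edgeR). The 6 adipocyte markers reached 29.7 to 190% of their adipocyte level in endothelial nuclei, with a median of 40.7%, and their part in this Cebpa level was not tested. Thinned nuclei showed Cebpa in 20.8% and 8.25% of adipocytes, in 7.2% and 3.54% of FAPs and in 11.1% and 6.61% of immune nuclei, so the FAP share lay below that of immune nuclei.

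Klf15 (ENSMUSG00000030087, chr6:90438998-90452220), a zinc finger factor of late adipogenesis, was at 105 and 89.7 CPM in adipocytes and at 45.8 and 55.1 CPM in FAPs. The groups did not overlap, and FAPs were lower by a log2 difference of -1.30 ± 0.27 (edgeR adjusted p = 7.0e-05), and adipocytes were above all 5 other types in the pairwise tests. Klf15 passed no test among those 5. Within adipocytes Klf15 was at 54.2 and 87.6 CPM in subcluster 1 and at 71.2 and 90.8 CPM in subcluster 2, described further on. The mitochondrial-rich subcluster 3, with 1283 of the 1657 adipocyte nuclei of replicate 1, held 124 and 174 CPM. In replicate 1, subcluster 1 lay below the FAP value of replicate 2. Klf15 was not called among the subclusters (edgeR adjusted p = 0.093), but was at resolution 0.3 (adjusted p = 0.0081).

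Zfp423 (ENSMUSG00000045333, chr8:88388438-88687289, minus strand) is known as a mark of committed preadipocytes, yet it was higher in adipocytes, at 139 and 144 CPM, than in FAPs, at 53.2 and 83.9 CPM. The groups did not overlap, with a log2 difference of -1.41 ± 0.25 (edgeR adjusted p = 3.1e-06). Thinned nuclei showed it in 12.6% and 12.4% of adipocytes, 4% and 7.92% of FAPs and 3.57% and 5.05% of immune nuclei. The FAP share of replicate 1 therefore lay within counting error of the immune share. Endothelial nuclei held Zfp423 at 112 and 120 CPM, next below adipocytes (log2 difference 0.75 ± 0.26, edgeR adjusted p = 0.022 over all genes and pairs).

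Ebf2 (ENSMUSG00000022053, chr14:67470736-67668394), a factor that marks fat progenitors and takes part in the brown programme, was higher in FAPs than in every other type. It stood at 1595 and 1549 CPM in FAPs and at 154 and 319 CPM in adipocytes, a log2 difference of 2.51 ± 0.24 (edgeR adjusted p = 1.0e-13) that was 1.84 without replicate 1 and 3.13 without replicate 2. The FAP values of the mice lay close together while the adipocyte values did not. Thinned shares were 62% and 66.2% of FAP nuclei (exact 95% intervals 55.7 to 68.0% and 63.6 to 68.8%), 12.01% and 21.9% of adipocyte nuclei and 2.78% and 7.25% of immune nuclei, and the unthinned shares were 74.4% and 79.9% in FAPs and 29.0% and 59.5% in adipocytes. FAP markers summed to 461 and 188 CPM in adipocytes of replicates 1 and 2, and the part of FAP RNA in the Ebf2 level of adipocytes was not tested.

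Ebf2 was higher in FAPs than in smooth muscle and pericyte nuclei, the next type in order, at 434 and 497 CPM (adjusted p = 4.3e-09 over all genes and pairs, edgeR). Endothelial, immune and mesothelial nuclei held 41.8 to 132 CPM.

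Cebpd (ENSMUSG00000071637, chr16:15705150-15708895), an early factor of the cascade, was at 66.0 and 67.3 CPM in FAPs, from 36 and 231 UMIs. In adipocytes it was at 10.2 and 3.23 CPM, from 60 and 87 UMIs. The log2 difference was 3.19 ± 0.37 (edgeR adjusted p = 7.3e-11), and it was 3.94 without replicate 1 and 2.45 without replicate 2. Of the 60 adipocyte UMIs in replicate 1, 55 came from the mitochondrial-rich adipocyte subcluster described further on. Without that subcluster, a setting chosen after seeing the data, the log2 difference was 4.05 (edgeR adjusted p = 2.0e-14). Thinned nuclei showed Cebpd in 5.2% and 5.85% of FAPs (exact 95% intervals 2.80 to 8.73% and 4.63 to 7.26%), in 1.15% and 0.383% of adipocytes and in 3.97% and 3.85% of immune nuclei. Adipocytes were below FAP, immune, endothelial and mesothelial nuclei, and only the smooth muscle type, with 1 UMI in each mouse, was not told apart from them. Spidr lies on the opposite strand over Cebpd and was at 159 CPM in FAPs and 65.0 CPM in adipocytes on average. Whether strand was used in counting is not given in the sources used here, so reads of the pair may not be separable.

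Cebpb (ENSMUSG00000056501, chr2:167530835-167532338), the other early factor, did not follow Cebpd. It was at 168 and 72.4 CPM in adipocytes and at 125 and 67.6 CPM in FAPs, and the range of each group covered most of the other. The log2 difference was -0.59 ± 0.25 (edgeR adjusted p = 0.041). DESeq2 gave an adjusted p of 0.41, the call was lost with no library block (adjusted p = 0.43), and the adjusted p was 0.070 when all pairs of types were adjusted together. The call was also lost at a mitochondrial limit of 5% (edgeR adjusted p = 0.063) and with no integration of the libraries (edgeR adjusted p = 0.054). Peds1 overlaps Cebpb on the opposite strand, at 16.9 CPM in FAPs and 5.64 CPM in adipocytes on average, with the same limit on strand as for Cebpd. The highest mean was in immune nuclei, at 392 and 114 CPM, which were above FAPs (log2 difference 1.13 ± 0.26, adjusted p = 0.00038 over all genes and pairs).

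Ebf1 (ENSMUSG00000057098, chr11:44508138-44898918), a factor of progenitors and B cells, was at 2262 and 2935 CPM in FAPs and at 1741 and 2308 CPM in adipocytes. The log2 difference of 0.02 ± 0.23 (edgeR adjusted p = 0.95) had no fixed sign, being -0.39 with no filter on low counts, 0.38 with library totals and -0.10 without replicate 1. Ebf1 was seen in 72.8% and 85.9% of thinned FAP nuclei and in 70.5% and 84.2% of adipocyte nuclei. These 2 types, with smooth muscle and endothelial nuclei at 1695 to 2493 CPM, stood above immune and mesothelial nuclei, at 244 to 662 CPM (endothelial against immune, adjusted p = 2.3e-09 over all genes and pairs, edgeR).

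Tcf7l2 (ENSMUSG00000024985, chr19:55730188-55922091) was at 325 and 569.6 CPM in adipocytes and at 286 and 401 CPM in FAPs, lower in FAPs within each mouse and overlapping between mice. FAPs were lower by a log2 difference of -0.71 ± 0.22 (edgeR adjusted p = 0.0052), a call lost with no library block (adjusted p = 0.16). By CPM, Tcf7l2 in FAP subcluster 1, described further on, stood at 72.5% and 53.9% of the adipocyte level of the same mouse. In FAP subcluster 2 it stood at 132% and 106%, and neither subcluster was tested against adipocytes. Thinned shares were 24.3% and 41.3% in adipocytes, 21.2% and 29.5% in FAPs and 9.13% and 13.8% in immune nuclei.

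Prdm16 (ENSMUSG00000039410, chr4:154400581-154721625, minus strand) was at 41.5 and 55.4 CPM in adipocytes and at 27.5 and 37.6 CPM in FAPs. In the fit the log2 difference was -0.93 ± 0.29 (edgeR adjusted p = 0.0064), and with no library block the adjusted p was 0.072. The direction turned, to 0.67 (adjusted p = 0.079), when a thermogenic-like adipocyte subcluster described further on was left out. FAP against adipocyte was its only call among 15 pairs of types. In thinned nuclei Prdm16 was seen in 2.8% and 3.77% of FAPs, 2.96% and 4.21% of adipocytes and 3.97% and 5.23% of immune nuclei, so neither share stood above that of immune nuclei. Over all 10 factors the pairwise calls were 11 of 15 for Pparg, Cebpa and Ebf2, 10 for Cebpd, 8 for Ebf1, 7 for Zfp423 and Tcf7l2, 6 for Cebpb and 5 for Klf15, beside 25.5% called over all genes and pairs.

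Several factors differed between the mice in the same direction across types. Cebpb was higher in replicate 1 in all 6 types and Cebpa in 5 of 6, whereas Pparg, Zfp423 and Tcf7l2 were higher in replicate 2 in all 6. Ebf1, Ebf2 and Prdm16 were higher in replicate 1 in 1 type each, and Cebpd and Klf15 in 2. The mitochondrial share of the libraries moves with this, and its part in the result was not tested.

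**Figure D3:**
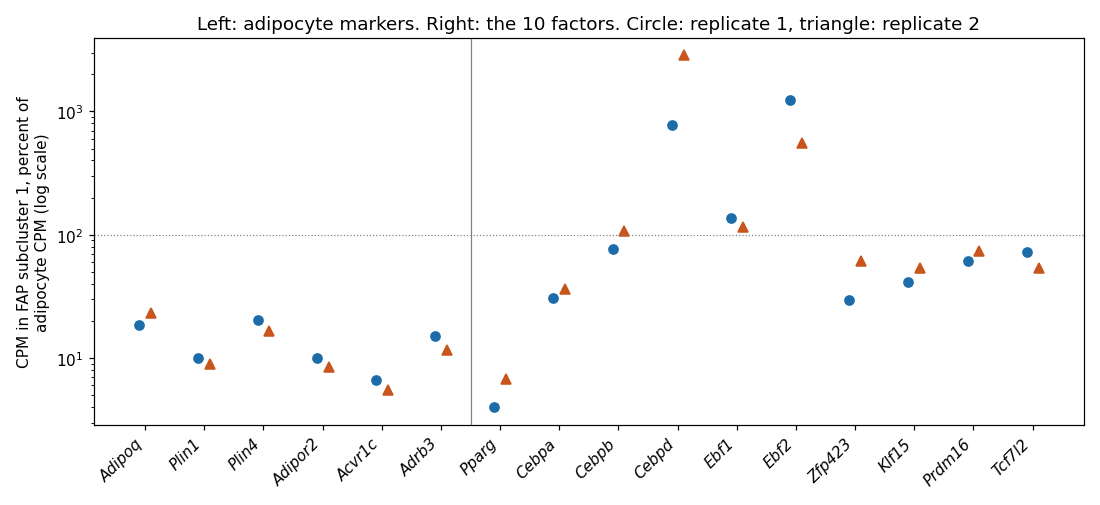
Level in FAP subcluster 1 as percent of the adipocyte level of the same mouse (log axis), for the 6 adipocyte markers on the left and the 10 factors on the right, with circles for replicate 1 and triangles for replicate 2. Pparg lies at 4.00% and 6.77%, below or at the low end of the markers' 5.48 to 23.1%, and Cebpa, at 30.7% and 36.5%, lies above all 6.

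FAPs fell into 3 subclusters. Subcluster 1 (188 and 864 nuclei) had all 6 interstitial progenitor markers raised, such as Pi16 and Dpp4, and subcluster 2 (48 and 304 nuclei) had 2 of 6 committed preadipocyte markers and stayed unnamed. Subcluster 3, with the adipocyte markers, had 14 nuclei in replicate 1 and was not tested. At resolution 0.3 only a smaller FAP subcluster, of 120 and 432 nuclei, had the interstitial progenitor markers raised, 6 of 6. A separate one, of 67 and 427 nuclei, had 0 of 6. These markers may therefore describe only a part of subcluster 1. Between subclusters 1 and 2, 3 of the 10 factors were called, beside 6.91% of 8641 genes.

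Pparg was higher in subcluster 2, at 548 and 552 CPM, than in subcluster 1, at 159 and 318 CPM. The groups did not overlap, and the log2 difference, 1 minus 2, was -1.06 ± 0.23 (edgeR adjusted p = 0.00017). The 6 adipocyte markers together were at 753 and 512 CPM in subcluster 1 and at 877 and 482 CPM in subcluster 2, higher in subcluster 2 in one mouse and lower in the other. In subcluster 2 Pparg stood at 13.8% and 11.7% of its adipocyte level, inside the 6.01 to 28.5% of the markers. Tcf7l2 was also higher in subcluster 2, at 428 and 602 CPM against 236 and 307 CPM (log2 difference -0.85 ± 0.23, edgeR adjusted p = 0.0049).

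Cebpb was higher in subcluster 1, at 128 and 77.1 CPM against 65.8 and 29.2 CPM, where subcluster 2 held 6 and 18 UMIs (log2 difference 1.34 ± 0.41, edgeR adjusted p = 0.019). Cebpd was at 79.4 and 91.9 CPM in subcluster 1 and at 32.9 and 48.7 CPM in subcluster 2 and did not pass (adjusted p = 0.11). Cebpb also lost its call with the highest doublet scores removed (adjusted p = 0.087) and at resolution 0.3 (adjusted p = 0.14). With no filter on low counts Tcf7l2 and Cebpb both lost their calls (edgeR adjusted p = 0.051 and 0.053). All 3 calls were lost with DESeq2, with adjusted p of 0.065 for Pparg, 0.32 for Tcf7l2 and 0.45 for Cebpb, and with no library block.

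**Figure D4:**
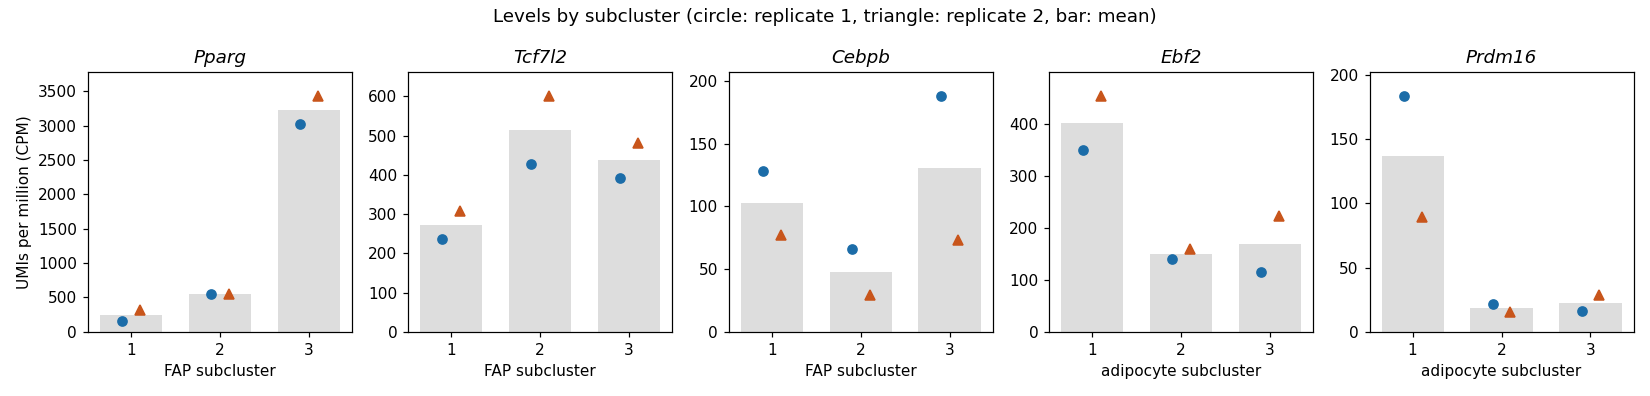
CPM of Pparg, Tcf7l2 and Cebpb in the 3 FAP subclusters and of Ebf2 and Prdm16 in the 3 adipocyte subclusters, with circles for replicate 1, triangles for replicate 2 and bars for the mean. Pparg is higher in FAP subcluster 2 than in 1 in both mice, and Prdm16 stands at 184 and 89.7 CPM in adipocyte subcluster 1 against 29.0 CPM or less in the others.

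Adipocytes also fell into 3 subclusters. Subcluster 1 (187 and 1988 nuclei) was thermogenic-like, with 5 of 6 thermogenic markers raised, and subcluster 2 (187 and 1857 nuclei) was led by Cish and Gulp1. Subcluster 3 (1283 and 71 nuclei) was rich in mitochondrial UMIs, with a median of 5.51%, and came mostly from replicate 1, so its values in replicate 2 rest on few nuclei. At resolution 0.3 only a smaller adipocyte subcluster, of 137 and 727 nuclei, had thermogenic markers raised, 6 of 6. A separate one, of 53 and 1267 nuclei, had 0 of 6. The name thermogenic-like may therefore hold for only a part of subcluster 1. Prdm16 was a leading gene of subcluster 1 and is only described, and Cebpd was too low to be tested. Of the other 8 factors, 1 was called, Ebf2, beside 1.31% of 12529 genes.

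Prdm16 was at 184 and 89.7 CPM in subcluster 1, at 22.1 and 15.1 CPM in subcluster 2 and at 16.3 and 29.0 CPM in subcluster 3. Since it was among the 10 leading genes of subcluster 1, these levels are a description. Without subcluster 1, Prdm16 was no longer lower in FAPs: this is the setting, chosen after seeing the data, that turned its direction. Cebpb lost its call there too, at -0.45 (adjusted p = 0.14).

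Ebf2 was at 350.2 and 454 CPM in adipocyte subcluster 1, at 140.5 and 160 CPM in subcluster 2 and at 116 and 223 CPM in subcluster 3. Subcluster 1 did not overlap with the others, and Ebf2 differed among the 3 (edgeR adjusted p = 0.0018), with a log2 difference of 1.37 ± 0.24 between subclusters 1 and 2. The 8 FAP markers summed to 342 and 196 CPM in subcluster 1, 316 and 171 CPM in subcluster 2 and 522 and 615 CPM in subcluster 3, and their part in the result was not tested. With no library block the adjusted p was 0.11, and with subcluster 3 left out it was 3.8e-07. Pparg was at 3930 and 4944 CPM in subcluster 1 and at 3937 and 4443 CPM in subcluster 2 and passed no test (adjusted p = 0.94).

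Factors around the 10 members were counted in 5 lists, to be read beside the 27.6% of all genes higher in FAPs and the 21.1% higher in adipocytes. Among 18 targets of PPARG and CEBPA, 18 were higher in adipocytes (median log2 difference -2.10, beside 0.02 over all genes), with Acsl1, an acyl-CoA synthetase, at -2.91 ± 0.23 (edgeR adjusted p = 8.3e-17) and Lep, the leptin gene, at -2.48 ± 0.23 (adjusted p = 2.8e-14). Without the FAP subcluster with adipocyte markers the median was -3.00, Acsl1 was at -4.31 and Lep at -3.94. With no library block 17 targets were called higher in adipocytes, and Cfd was not (edgeR adjusted p = 0.052). Among 12 inhibitors of adipogenesis tested, 8 were higher in FAPs and 3 in adipocytes (median 1.62). Zfp521, which opposes EBF factors, was at 475 CPM in FAPs and 18.4 CPM in adipocytes on average (log2 difference 4.32 ± 0.25, adjusted p = 2.5e-23), and Klf2, a repressor of Pparg, was at 3.45 ± 0.25 (adjusted p = 7.5e-19). Wwtr1 and Ddit3 were 2 of the 3 called higher in adipocytes, at -0.76 and -1.03, and no inhibitor kept that call with library totals (adjusted p = 0.18 for Wwtr1 and 0.12 for Ddit3) or with no library block.

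Other pro-adipogenic factors were split. Of 16 tested, 3 were higher in FAPs, beside 27.6% of all genes, and 8 in adipocytes, beside 21.1% (median -0.51). Klf4, an early activator of Cebpb, was at 181 CPM in FAPs and 3.15 CPM in adipocytes (log2 difference 5.57 ± 0.31, edgeR adjusted p = 1.6e-23), and Klf6 was at 1.97 ± 0.25 (adjusted p = 6.3e-10). Srebf1, the lipogenic factor, was at -2.10 ± 0.23 (adjusted p = 4.7e-12), and Stat5a was at -1.88 ± 0.26 (adjusted p = 1.1e-08). Without the FAP subcluster with adipocyte markers they were at -2.92 and -2.72.

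Of 16 PPARG partners and coregulators, 5 were higher in adipocytes, 1 was higher in FAPs and 10 did not pass (median -0.28), beside 21.1% and 27.6% of all genes in those directions. Ppargc1b, a coactivator of mitochondrial genes, was at -2.37 ± 0.24 (edgeR adjusted p = 1.2e-12, and -3.56 without that subcluster), Nrip1, a corepressor, at -1.81 ± 0.22 (adjusted p = 1.9e-10), and the coactivator Ncoa3 at 0.84 ± 0.24 (adjusted p = 0.0028, and 0.061 with no library block). The median of this list turned to 0.09 with library totals. Of 21 genes of the WNT and TCF pathway, 8 were higher in FAPs and 4 in adipocytes (median 0.14), beside 27.6% and 21.1% of all genes. The lowest adjusted p among those higher in FAPs were those of Dact1, an intracellular modulator, at 5.81 ± 0.39 (edgeR adjusted p = 3.2e-20), and Sfrp1, a secreted WNT antagonist, at 4.50 ± 0.53 (adjusted p = 9.1e-11). Bcl9 and Gsk3b were called higher in adipocytes, at -0.78 and -0.67, and no gene of this list kept that call with library totals (adjusted p = 0.16 for Bcl9 and 0.28 for Gsk3b) or with no library block.

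**Figure D5:**
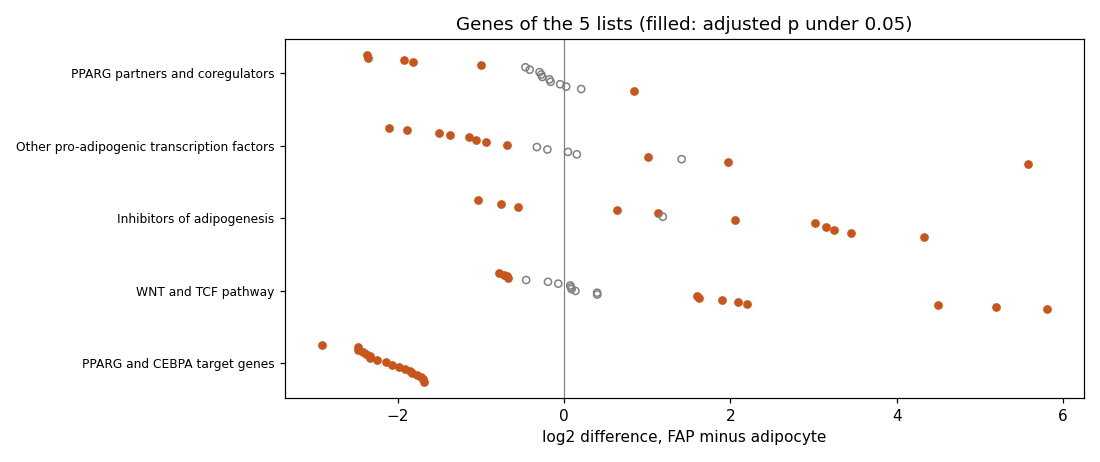
Log2 difference, FAP minus adipocyte (horizontal axis), of each gene of the 5 lists, with filled points for an adjusted p under 0.05 in edgeR. All 18 targets of PPARG and CEBPA lie left of 0, and 8 of 12 inhibitors are filled points on the right.

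Genes that ran closest to a factor were ranked by Pearson r over the 12 sums of 6 types in 2 mice, among 11394 genes. Genes close to Pparg were Ctcflos (0.97) and Chchd3 (0.97). For Cebpa the 3 genes were Cox7c (0.92), Scd1 (0.90) and Cdkn2c (0.90). Klf15 ran closest to Ap3s1 (0.92), Stradb (0.91) and Rad23b (0.90). Scd1, a desaturase of fatty acid synthesis, is itself among the target genes. For Cebpb the 3 genes were Pqlc3 (0.93), Mrpl44 (0.93) and Rpn1 (0.92). Cebpd ran closest to Zc3hav1 (0.88), Dnm1 (0.87) and Maf (0.86). For Ebf1 the 3 genes were Cped1 (0.97), Ppp2r2a (0.92) and 2210408F21Rik (0.91). Ebf2 ran closest to Adamts12 (0.96), Srgap1 (0.94) and Nr2f1 (0.94). Nr2f1 is an orphan nuclear receptor and Adamts12 a secreted protease. For Zfp423 the 3 genes were Nudt12 (0.94), Snapc3 (0.92) and Gm33432 (0.92). Prdm16 ran closest to Shld1 (0.91), 8430429K09Rik (0.90) and Pcsk7 (0.90). For Tcf7l2 the 3 genes were Scfd1 (0.94), Lncppara (0.94) and Runx1t1 (0.92). These points share libraries and depth, and the values are a description.

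The unnamed cluster, with a median of 2070 UMIs, held Pparg at 1820 and 3254 CPM and the adipocyte markers at 4121 and 3896 CPM, the latter near the level of adipocytes. It entered no comparison.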

How the data were processed

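Single-nucleus RNA was measured in VAT of 2 mice. The authors aligned reads to GRCm39 with CeleScope, and the deposited matrices hold raw UMI counts per gene and nucleus; the CeleScope version, annotation and strand setting are not given in the sources used here. Positions are from GENCODE vM39 on GRCm39.

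A nucleus was kept when it had more than 500 genes, more than 1000 UMIs and a mitochondrial share below 15%. Counts were log-normalised, and 1000 variable genes without the members and list genes, 30 principal components, a numpy 2.4.6 version of Harmony and Leiden clustering (leidenalg 0.10.2, 20 neighbours, resolution 0.1) gave clusters, and 16 components gave subclusters. A name needed at least 3 markers and a share of 0.5 of the list raised by at least 1 on the log2 scale, with 5% of its nuclei holding the marker. In all, 5 graphs and 3 naming rules were tried, and the choice was made on cell type markers. Scrublet marked 1 nucleus in each library and so did not work; an alternative removed the 6% with the highest scores.

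UMIs were summed per library and type, for types with at least 20 nuclei in each library. edgeR 4.0.16 (R 4.3.3; filterByExpr, TMM, quasi-likelihood) was fitted to all 6 types with the library as a block, and tested on simulated data. Types were paired by library, with 1 library per mouse, so mouse and library cannot be told apart. Across 15 pairs of types, library differences correlated at 0.14 to 0.53 over 11394 genes. Pairs of types were adjusted together over all genes. SEs are the log2 difference over the root of F. DESeq2 1.42.0 was an alternative. Named genes are the 10 members, the 2 with the lowest adjusted p in each direction of each list, and the 3 closest genes to each member by r of log2(CPM + 1) among genes at 10 CPM or more. For Pparg, 1 of the 3 is not reported here. The members and lists were chosen with earlier results of these data known.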

Additional observations from a re-analysis of the deposited data

How the results depend on the processing

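Pparg, Cebpa, Zfp423 and Klf15 stayed higher in adipocytes and Ebf2 and Cebpd higher in FAPs, past the threshold, under every alternative that gave a test, and kept their direction without either mouse, where no test could be had. Leaving out a mouse gave -2.57 to -3.07 for Pparg, 1.84 to 3.13 for Ebf2 and -1.52 to -1.66 for Cebpa. Cebpb, Prdm16 and Tcf7l2 did not, as given above. The 7 factors higher in adipocytes became 4 with no replicate block and 4 with library totals without TMM. Their number was 6 with DESeq2, 6 at a mitochondrial limit of 5%, 6 with no integration and 5 without the thermogenic-like adipocyte subcluster. All genes called fell from 6746 to 4092 with no replicate block and 4165 at a mitochondrial limit of 5%. Ebf1 turned to -0.39 with no filter on low counts, -0.14 with the FAP and adipocyte sums alone in the fit, -0.10 with 15 principal components and -0.0856 with members and lists kept as features. Prdm16 turned to 0.67 without the thermogenic-like subcluster. The settings that leave out a subcluster were chosen after seeing the data.

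Between FAP subclusters, the 3 factors and 597 genes called became 0 and 197 with DESeq2 (2 factors at an unadjusted p under 0.05), 0 and 140 in edgeR with no replicate block (4 at an unadjusted p under 0.05), 1 factor with no filter, 2 factors and 374 genes with the highest doublet scores removed, and 5 factors at resolution 0.3. With no filter the factor called was Pparg, and Tcf7l2 and Cebpb were not called (edgeR adjusted p = 0.051 and 0.053). Cebpb was also not called with the highest doublet scores removed or at resolution 0.3. At resolution 0.3 Pparg, Tcf7l2, Cebpd, Ebf1 and Ebf2 were called. Between adipocyte subclusters, the 2 factors, of which Prdm16 is a leading gene and gives no support, and 164 genes became 1 (Prdm16) and 24 with no replicate block, 5 and 834 at resolution 0.3, and 340 genes without the mitochondrial-rich subcluster. The cause of these shifts was not tested.

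Without thinning, the mean share of nuclei, FAP minus adipocyte, was -56.5 percentage points for Pparg, -28.5 for Cebpa, -17.4 for Cebpb, 8.62 for Cebpd, 32.9 for Ebf2, -28.5 for Zfp423, -21.9 for Klf15, -6.97 for Prdm16 and -29.3 for Tcf7l2, and Ebf1 turned from 1.99 to -5.35. Depth limits the low factors: Prdm16 in FAPs of replicate 1 rests on 15 UMIs and Klf15 on 25.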
